A study of Streblospio benedicti with 24 samples.

Results

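Of the 5995 genes marked as non-coding in the annotation of the marine annelid Streblospio benedicti, 129 were detected in mature oocytes. A non-coding gene counted as detected when it reached at least 0.5 counts per 1000000 counts on genes (CPM) in at least 5 of the 24 libraries. The 129 genes were therefore selected on their own measured levels, and those levels are given as a description. The files hold 26216 genes in all, and 10690 of the 20221 coding genes met the same criterion. A further 1995 non-coding genes had a count in at least 1 library without meeting it.

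Females of this species make either small eggs that develop into plankton-feeding (planktotrophic) larvae or large eggs that develop into yolk-feeding (lecithotrophic) larvae. Each library held the pooled, unfertilized oocytes of a single clutch from 1 female reared in isolation. PP libraries (n = 7) came from planktotrophic females of a Bayonne, New Jersey population, and LL libraries (n = 7) from lecithotrophic females of a Long Beach, California population, so that morph and population cannot be told apart. PL and LP libraries (n = 5 each) came from F1 females of reciprocal lab crosses between the morphs, named with the mother's allele ahead of the father's. F1 oocytes thus report on RNA made in heterozygous females whose mothers were of the P morph (PL) or the L morph (LP). The labels name no agent given to any group and no ages.

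Animal oocytes store maternal RNA that the early embryo uses before it transcribes its own genome, and this store holds non-coding transcripts beside the messages for proteins. Known kinds of non-coding RNA in animals include ribosomal, transfer and spliceosomal RNAs, small RNAs that silence transposons in the germ line, and long transcripts, some of which act on chromatin. The identifiers do not say which kind a gene is. Names, positions, strands, lengths and sequences of the 129 genes were not analysed here, so each is given by its identifier. CPM is not corrected for transcript length, and levels were compared between libraries of the same gene and not between genes. Without gene names, the oocyte label could not be checked against marker genes.

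Libraries differed in ways that bear on such low counts. The depth of a library lay between 7489256 and 43609048 counts on genes, so that a single count was worth between 0.0229 and 0.134 CPM and 3 counts between 0.0688 and 0.401 CPM. Between 33.9% and 79.7% of the reads in a file were aligned, to a reference genome of the planktotrophic morph. All 10 F1 libraries, PP replicate 7 and LL replicates 6 and 7 carry a label of 2 technical replicates, and the study's methods describe a separate sequencing run for the F1 samples. The label therefore overlaps almost completely with the F1 groups. The sample names of LP replicates 1 to 3 share a stem, as do those of PL replicates 3 to 5 and of PP replicates 5 and 6, and what the stems stand for is not stated. Libraries of the same group all differed by more than sampling noise (smallest chi-square per gene 41.3 over 62 pairs). This does not show that libraries with a shared stem came from different females.

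The 129 genes took a larger share of the counts in LL than in PP oocytes. Their summed level ran from 32.3 to 127.5 CPM in PP (median 54.5) and from 205 to 1309 CPM in LL (median 619), and no PP library reached the lowest LL library. The means were 69.6 ± 36 CPM in PP and 694 ± 433 CPM in LL (SD, n = 7 each), a ratio of 9.97. In PL the 5 libraries held 191, 276, 51.4, 65.8 and 113 CPM, and in LP they held 372, 871, 130, 49.0 and 54.9 CPM. Both F1 groups overlapped with PP, and each also overlapped with LL. These are bulk samples of whole clutches, where fewer cells of a type and less RNA per cell cannot be told apart.

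The number of these genes detected in a library was also higher in LL than in PP. It uses the same cut that admitted the genes. Of the 129, 52 needed LL libraries to be admitted and 11 needed PP libraries. Among all genes that met the criterion, 615 needed LL libraries and 369 needed PP libraries. A higher number in LL is thus partly built in, which bears on the summed level too. Between 14 and 51 of the 129 were at 0.5 CPM or more in a PP library and between 59 and 98 in an LL library, again without overlap. PL libraries held 32 to 73 and LP libraries 30 to 92. The number of coding genes at that level was 8732 to 9439 in PP (mean 9078) and 9295 to 9854 in LL (mean 9543). It was thus also higher on average in LL, with overlap. In PL it was 9075 to 9718 and in LP 9185 to 9528. In every library of the group, 4 of the 129 genes were at 0.5 CPM or more for PP, 25 for LL, 13 for PL and 7 for LP. Of the 129, 38 were at 0.5 CPM in no PP library and 5 in no LL library.

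**Figure D1:**
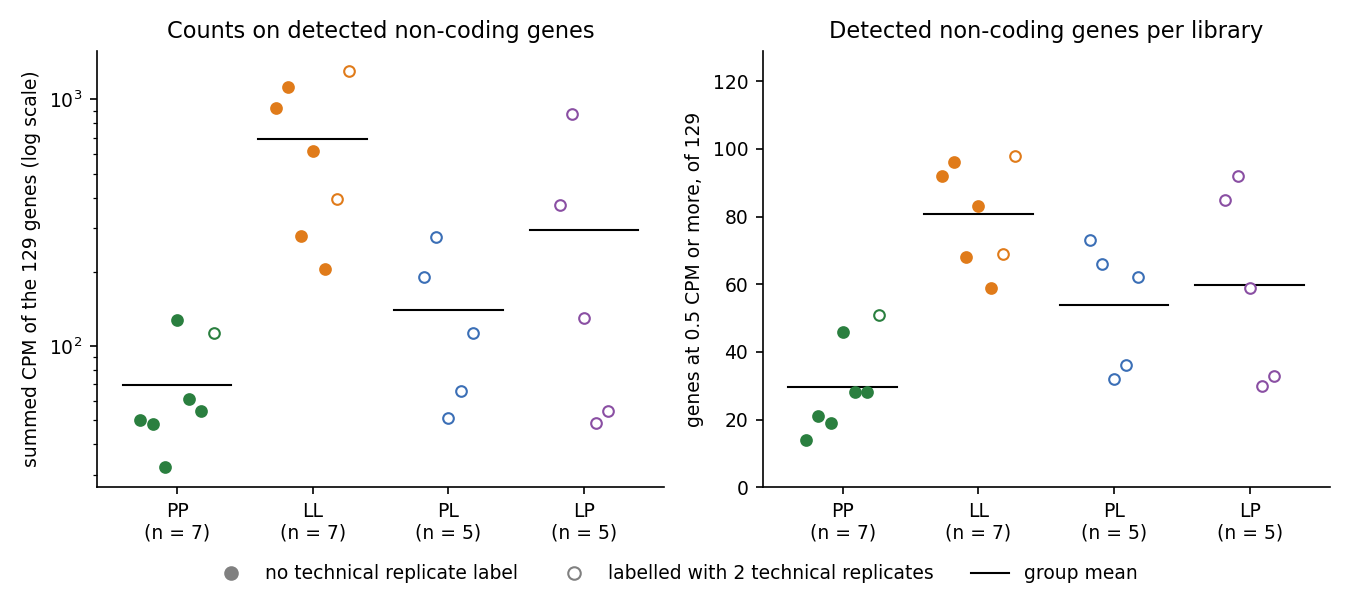
Summed CPM of the 129 detected non-coding genes (left, log scale) and the number of them at 0.5 CPM or more (right) in each library, by genotype. Points are libraries, open points carry the label of 2 technical replicates and lines are group means. The LL libraries sit between 205 and 1309 CPM, above all PP libraries, and the F1 libraries spread across both ranges.

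The difference between PP and LL in summed level was present among libraries with and without the label. The 6 PP libraries without it held 32.3 to 127.5 CPM and the 5 LL libraries without it 205 to 1127 CPM. Among the labelled libraries, the PP library held 113 CPM and the LL libraries 396 and 1309 CPM, and the labelled PP library lay inside the range of the F1 libraries. The F1 values also differed by the stem of the sample name. LP replicates 1 to 3, with a shared stem, held 130 to 871 CPM and the other LP libraries 49.0 and 54.9 CPM. PL replicates 3 to 5, with a shared stem, held 51.4 to 113 CPM and the other PL libraries 191 and 276 CPM. What part the stems have in these values was not tested.

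Within a group the same few libraries were high for many of the genes. LL replicate 7 held the highest LL value of 46 genes and LL replicate 2 that of 37, while LL replicate 3 held it for 0. LP replicate 2 was the highest LP library for 67 of the 126 genes with a count in LP, and LP replicates 4 and 5 had no count for 80 and 66 of the 129. PL replicates 1 and 2 were highest for 43 and 48 of 123 genes. In PP, replicates 7 and 4 were highest for 43 and 36 of 121 genes. The plot of each gene by library shows these libraries as bright columns.

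**Figure D2:**
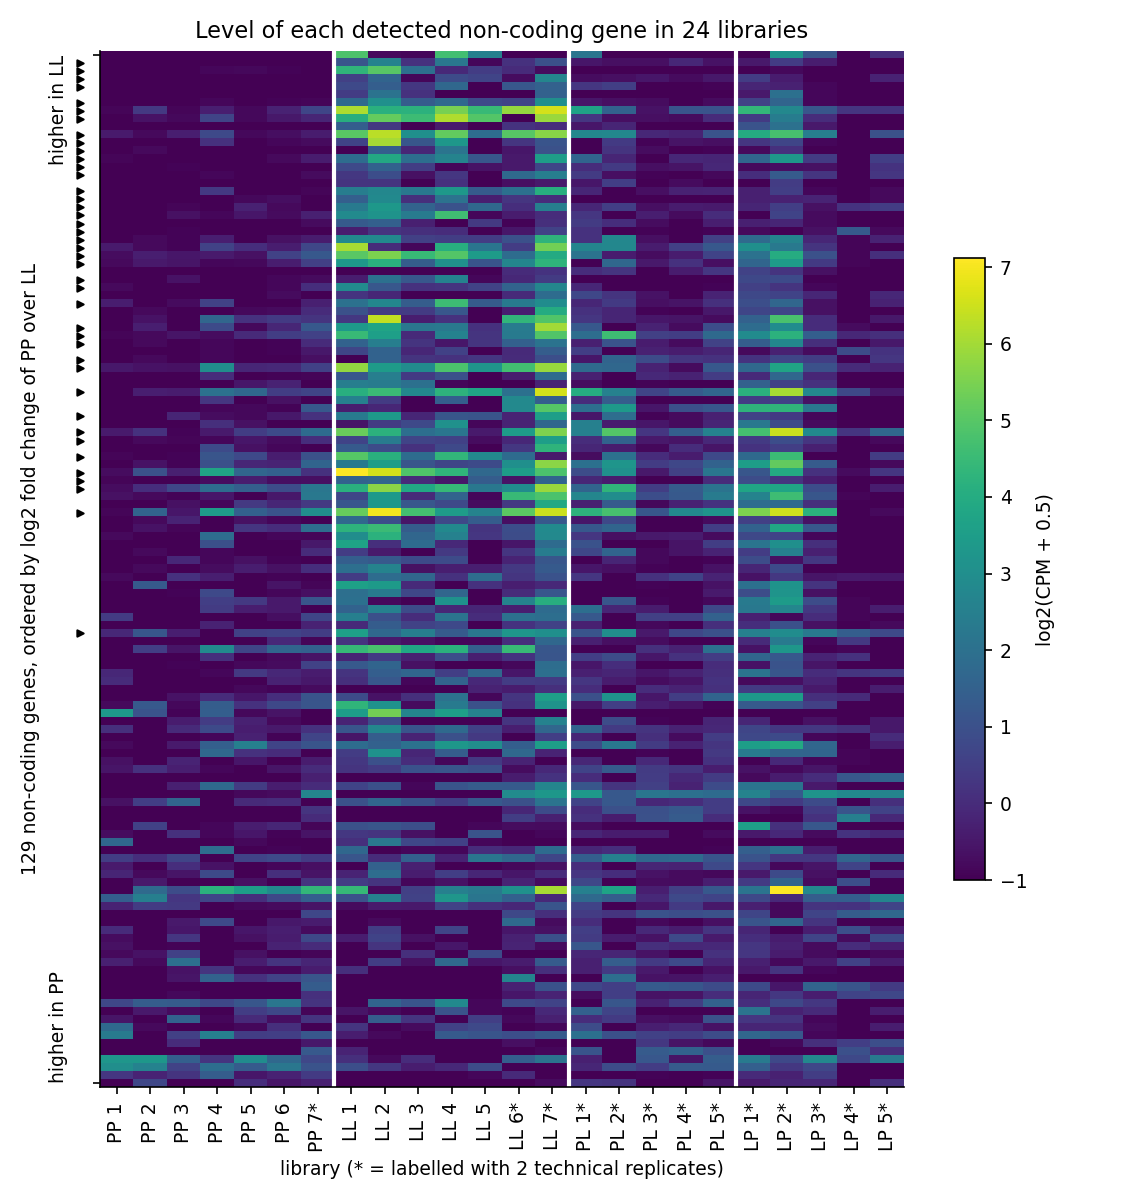
Level of the 129 detected non-coding genes (rows) in 24 libraries (columns), as log2(CPM + 0.5). Rows run from the most negative to the most positive log2 fold change of PP over LL, and triangles mark the 41 genes that passed the test between PP and LL. LL libraries are bright over the upper rows, with LL replicates 1, 2 and 7 and LP replicate 2 the brightest columns, and LP replicates 4 and 5 are mostly dark.

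The spread between clutches was wide. The median coefficient of variation over the genes was 1.47 for PP, 1.20 for LL, 1.02 for PL and 1.26 for LP, against 0.566, 0.497, 0.487 and 0.516 over all genes tested. Most of the 129 genes were low, with a median of 0.934 CPM (mean over 24 libraries), 66 genes under 1 CPM and 9 at 10 CPM or more. Among genes with a mean under 10 CPM the medians in PP and LL were 1.56 and 1.21 for the 120 non-coding genes and 0.869 and 0.783 for 5347 coding genes.

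PP and LL oocytes were compared gene by gene with edgeR in a fit of all 10819 genes that met the detection criterion, coding and non-coding, with thresholds of 0.05 on the adjusted p and 1.5 on the fold change. By edgeR 41 of the 129 non-coding genes passed, and all 41 had higher expression in LL. Over the whole fit 3.99% of the genes passed, 1.92% with higher expression in LL and 2.07% with higher expression in PP. Of the 41 genes, 18 counted as detected only through LL libraries, so their passing is partly built in. Leaving out genes of that kind, 23 of 77 non-coding genes passed with higher expression in LL, against 1.64% of 10204 genes in the fit. No non-coding gene passed with higher expression in PP, although 4 had an unadjusted p under 0.05 in that direction and DESeq2 called 2. DESeq2's Wald test, which called 8.5% of the genes it tested, called 70 of the 127 non-coding genes it tested, 68 of them higher in LL.

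The log2 fold change of PP over LL was below 0 for 115 of the 129 genes, and its median was -3.40 over the 129 and 0.01 over all genes tested. The median of the 129 was -3.38 with the 8 genes that had no count in PP set to their bound, taken at 3 counts over the group. For 17 genes every LL library lay above every PP library, and for 0 genes the reverse held. Over the whole fit these shares were 1.09% and 0.61%. Of the 17 genes, 9 counted as detected only through LL libraries, so the 17 are a description and no test against these shares. Of the 41 genes that passed, 19 were at 0.5 CPM in no PP library and 17 were at 0.5 CPM or more in every LL library. The 31 of them with more than 3 counts in PP had an LL mean between 7.84 and 119 times the PP mean, with a median of 28.5 times.

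The detection criterion itself admits genes that are high in a single group, which must then differ from the others. Of the 129 genes, 52 were at 0.5 CPM or more in fewer than 5 of the 17 libraries other than LL, and so needed LL libraries to be counted as detected. Of these 52, 18 were among those that passed. Over the whole fit 615 genes needed LL libraries in this way, and 6.67% of them passed with higher expression in LL. The reverse case, fewer than 5 of the 17 libraries other than PP, held 11 genes, of which 0 passed by edgeR and 2 had an unadjusted p under 0.05. Over the whole fit it held 369 genes, of which 4.88% passed with higher expression in PP. A group of 57 genes met the criterion in the 10 F1 libraries alone, so that neither PP nor LL values admitted them. Of these 57, 21 passed by edgeR, all with higher expression in LL (36.8%), and 49 had a log2 fold change below 0, with a median of -3.14. Among the 9448 coding genes that met the criterion in the F1 libraries, 1.49% passed with higher expression in LL and 2.14% with higher expression in PP.

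**Figure D3:**
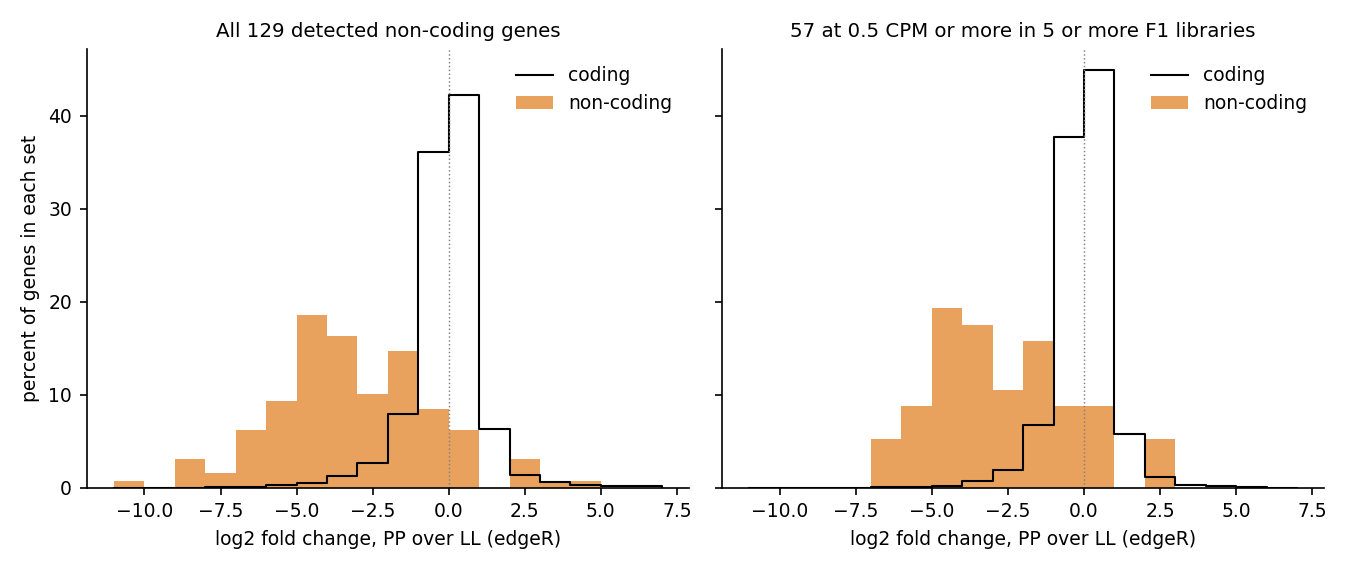
Distribution of the log2 fold change of PP over LL from edgeR, as the percent of genes in bins of 1 log2 unit, for non-coding genes (bars) and coding genes (line). The left panel holds the 129 detected non-coding genes, with a median of -3.40, and the right panel the 57 that met the criterion in the F1 libraries alone, with a median of -3.14. Coding genes peak at 0 in both panels.

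The number of genes that passed between PP and LL depended on single libraries. Leaving out PP replicate 1 gave 26, leaving out PP replicate 5 or PP replicate 6 gave 24 and leaving out LL replicate 2 gave 27, and it was 24 when PP replicates 5 and 6 were treated as a single library, which was tried after seeing the data. Among the 11 libraries without the technical replicate label it was 32, of which 30 were higher in LL. Over all genes tested the count of 432 fell in these fits too. It was 250 without PP replicate 1, 238 and 234 without PP replicates 5 and 6, and 234 without LL replicate 2. It was 250 with PP replicates 5 and 6 as a single library and 314 among the libraries without the label.

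Several of the non-overlapping genes were nearly absent from PP oocytes and present in every LL library. Sbene_nc_G11632 had 0.0361 to 1.12 CPM in PP (median 0.308) and 17.4 to 95.2 CPM in LL (median 43.5). Its PL libraries held 12.6, 2.40, 0.165, 1.66 and 1.61 CPM and its LP libraries 20.2, 6.47, 1.73, 0.691 and 0.646 CPM. The lowest LL library thus lay far above the highest PP library, and the F1 libraries fell between the groups or inside the PP range, apart from the highest LP library. The log2 fold change of PP over LL was -6.90 (± 0.78 standard error, edgeR adjusted p = 2.71e-04), the smallest p of the 129 genes.

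Sbene_nc_G03322 followed a like pattern at similar size. It had 0.0693 to 1.23 CPM in PP (median 0.253) and 3.28 to 77.9 CPM in LL (median 32.8). PL libraries held 6.33, 6.41, 0.428, 0.350 and 1.61 CPM and LP libraries 15.4, 26.4, 5.02, 0 and 1.51 CPM. The highest PP library, replicate 4, stood above the other PP libraries, the next of which held 0.298 CPM. Its log2 fold change was -6.61 (± 0.80 standard error, edgeR adjusted p = 4.93e-04).

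The other 6 of the 8 non-overlapping genes described here reached 0.5 CPM in fewer than 5 libraries outside LL, as did 9 of all 17. They counted as detected only through LL, the group in which they were high, so their PP and LL levels are given as a description with no test. Sbene_nc_G03627 had 3 counts over the 7 PP libraries, in replicates 4, 6 and 7, and a PP maximum of 0.0514 CPM. In LL it ran from 1.09 to 8.02 CPM (median 2.93). The ratio of pooled counts was 206 (95% exact interval 70.0 to 1001, counting error only). PL libraries stayed between 0 and 0.208 CPM, while LP replicates 1 and 2 held 1.03 and 2.53 CPM and the other LP libraries 0.0469, 0 and 0 CPM.

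A pair of genes had no count in any PP library. Sbene_nc_G10354 ran from 0.0512 to 5.64 CPM in LL (median 1.49), at least 124-fold higher than the level that 3 counts over the PP libraries would give. It had counts in all PL libraries (0.208, 0.134, 0.132, 0.438 and 0.155 CPM) and in LP replicates 1 to 3 (0.238, 0.867 and 0.281 CPM). Sbene_nc_G18923 ran from 0.0468 to 5.94 CPM in LL (median 1.08), at least 104-fold higher by the same measure. Its PL libraries held 0.104, 0.134, 0.198, 0.0876 and 0.217 CPM. Both genes thus had counts in every PL library and in no PP library.

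Sbene_nc_G22098 differed from these in the F1 libraries. It ran from 0.0928 to 31.7 CPM in LL (median 0.870) and had 3 counts over the PP libraries, a ratio of pooled counts of 323 (95% exact interval 110 to 1570, counting error only). No PL library had a count of it, and the LP libraries together had 1 count. Its high LL values were those of replicates 1 and 2, at 19.5 and 31.7 CPM, and 5 libraries in all reached 0.5 CPM, so that it only just met the detection criterion.

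Sbene_nc_G01835 had 0.771 CPM in PP replicate 4 and 0.0447 CPM in PP replicate 7, and no count in the other PP libraries. In LL it ran from 2.00 to 16.6 CPM (median 4.91). PL libraries held 0.415, 0, 0.132, 0.350 and 0.372 CPM and LP libraries 0.317, 0.934, 0.0469, 0 and 0.0718 CPM, all below the lowest LL library. Sbene_nc_G10824 had 1 count over the PP libraries and 0.0516 to 2.45 CPM in LL (median 0.890), a ratio of pooled counts of 132 (95% exact interval 23.2 to 5274, counting error only). Its PL libraries, at 0.519, 0.801, 0.132, 0.175 and 0.434 CPM, lay within the LL range.

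**Figure D4:**
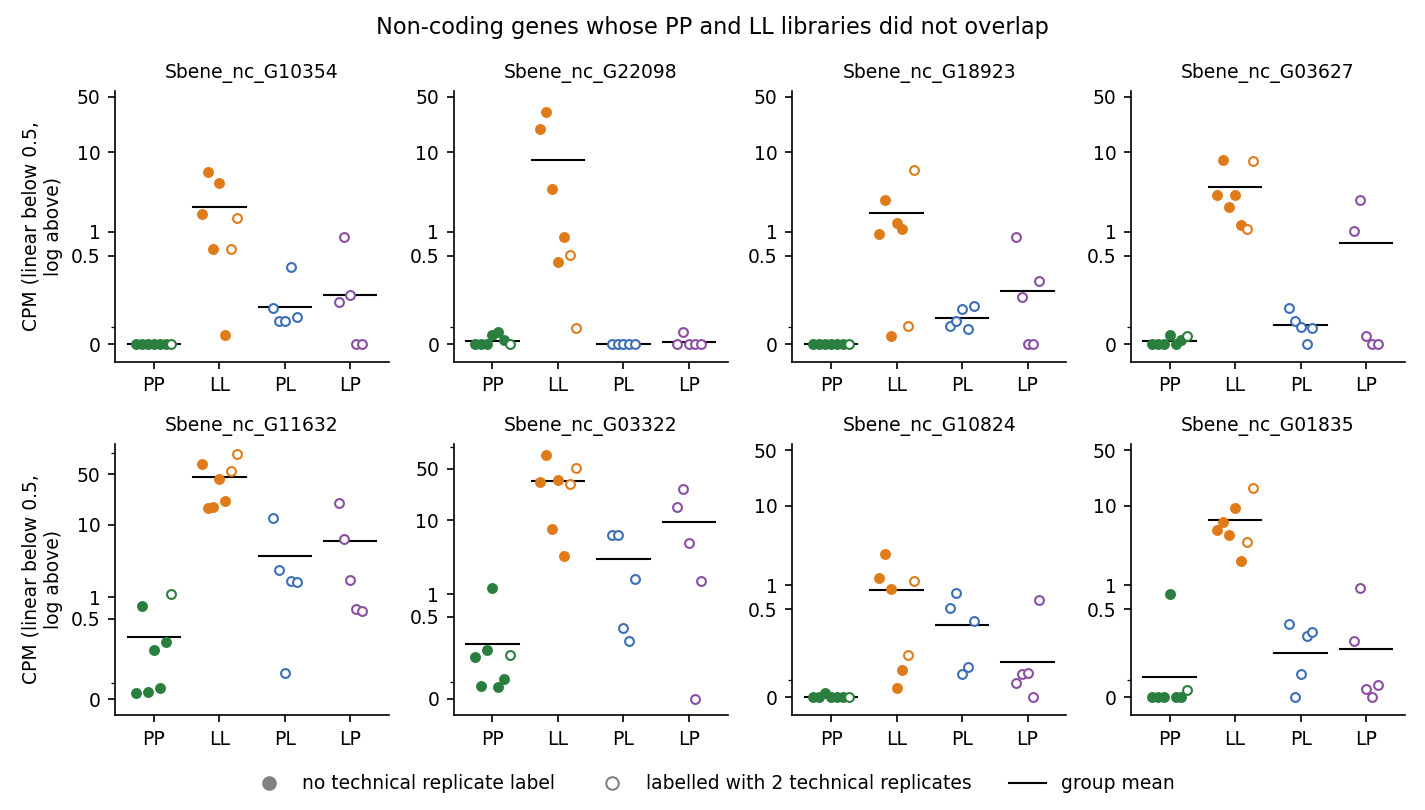
CPM, by genotype, of the 8 non-coding genes with the largest change among those that passed between PP and LL without overlap of the groups. The axis is linear below 0.5 CPM and logarithmic above, points are libraries, open points carry the label of 2 technical replicates and lines are group means. The F1 means lie between the parental means, except for Sbene_nc_G22098, which had no count in PL and 1 count in LP.

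Genes that took the most counts did not all follow this pattern. Sbene_nc_G01346, with the highest mean over 24 libraries, had 0.0361 to 10.7 CPM in PP (median 2.29) and 5.68 to 125.6 CPM in LL (median 32.9), so that the groups overlapped. Its LP libraries held 46.0, 90.3, 17.6, 0 and 0.0718 CPM and its PL libraries 18.4, 26.4, 1.74, 6.39 and 8.62 CPM. The fitted log2 fold change was -3.67 (± 0.91 standard error, edgeR adjusted p = 0.0359), and over the alternatives its adjusted p ran from 3.63e-04 to 0.0759. It lost the call without PP replicate 2, 5 or 6 or LL replicate 1, 2, 3 or 7, with log2 fold changes from -4.23 to -3.23 when single libraries were left out.

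Sbene_nc_G11936 had 0.108 to 12.8 CPM in PP (median 1.52) and 2.87 to 138 CPM in LL (median 27.9). Its F1 libraries were close to the PP range, with 1.35, 8.01, 0.230, 0.964 and 4.09 CPM in PL and 1.75, 14.9, 0.609, 0.0863 and 0.718 CPM in LP. In edgeR the log2 fold change was -3.95 (± 0.98 standard error, edgeR adjusted p = 0.0357), and without single libraries it ran from -5.09 to -3.25, with the call lost for PP replicates 1, 2, 5, 6 and 7 and LL replicates 1, 2 and 3.

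Sbene_nc_G17826 had 0 to 3.54 CPM in PP (median 0.882) and 3.50 to 96.7 CPM in LL (median 16.9), the groups meeting at 3.5 CPM. PL libraries held 15.7, 5.47, 1.09, 2.01 and 2.60 CPM and LP libraries 17.6, 66.5, 6.47, 1.21 and 0.215 CPM. Its log2 fold change was -4.30 (± 0.94 standard error, edgeR adjusted p = 0.0189).

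Sbene_nc_G08363 was the member of this group of 5 that did not pass. It had 0 to 20.3 CPM in PP (median 6.51) and 0.0818 to 66.4 CPM in LL (median 5.26), with the highest value of all, 137 CPM, in LP replicate 2. PP over LL, the log2 fold change was -0.84 (± 1.08 standard error, edgeR adjusted p = 0.753). Without LL replicate 7 it was 0.36.

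The genes that leaned furthest toward PP did not pass the test. Sbene_nc_G10280 had 1.01 to 7.51 CPM in PP (median 3.29) and 0 to 1.42 CPM in LL (median 0.464), a log2 fold change of 2.66 (± 0.91 standard error, edgeR adjusted p = 0.118, range 0.0144 to 0.211 over the alternatives). Only PP replicate 3 lay below the highest LL library. Sbene_nc_G16937 had counts in all PP libraries, from 0.208 to 2.11 CPM (median 0.665), and in LL only in replicates 5 and 6, at 0.0512 and 0.476 CPM. The fitted log2 fold change was 3.11 (± 1.16 standard error, edgeR adjusted p = 0.151), and it was called without LL replicate 6, with a log2 fold change of 5.68 and an adjusted p of 0.0165 (range 0.0165 to 0.244 over the alternatives). Sbene_nc_G05225 had 0 to 1.14 CPM in PP (median 0.191) and 2 counts in LL, both in replicate 7, a ratio of pooled counts of 13.9 (95% exact interval 3.60 to 119, counting error only, adjusted p = 0.149 from edgeR).

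The mean of the F1 libraries lay between the parental means for 75 of the 129 genes in PL and for 81 in LP. Of the 41 genes that passed between PP and LL, selected for a wide gap between the parents, it did so for 36 in PL and 39 in LP, and of the 88 that did not pass, for 39 and 42. These counts have no test, and the F1 means are of 5 libraries that differ widely. Over all 129 genes, the group with the highest mean was LL for 85, LP for 25, PL for 13 and PP for 6, and the group with the lowest mean was PP for 86. The LP mean was above the PL mean for 89 of the 129 genes, and the LP median above the PL median for 70.

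The reciprocal crosses were compared to ask whether the direction of the cross changed a transcript's level. By edgeR 0 of the 129 genes passed between PL and LP at an adjusted p under 0.1, against 0.0185% of all genes tested, which is 2 genes. An unadjusted p under 0.05 was found for 14 of the 129, 11 of them higher in LP, where 799 of all genes tested (7.39%) had such a p. DESeq2 called 3 of the 129, and 103 of the 11736 genes it tested. The smallest adjusted p was 0.424, and the median log2 fold change of PL over LP was -0.58 over the 129 genes and 0.05 over all genes tested. The former was 0 without LP replicate 2 and 0.0052 with F1 libraries summed by stem. It was -0.40 without LP replicate 1, -0.37 without PL replicate 3 and -0.82 without PL replicate 2. The lean toward LP thus depended on which libraries were included and on whether they were summed. All PL libraries lay above all LP libraries for 1 gene (0.536% of all genes tested) and below them for 0 (0.786%).

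That gene was Sbene_nc_G03966, which also had the smallest p of the 129. Its PL libraries held 1.04, 2.00, 0.823, 0.701 and 0.279 CPM and its LP libraries 0.159, 0.0667, 0.187, 0 and 0 CPM. The PL values were close to those of LL (0.102 to 1.70 CPM, median 0.818) and the LP values within the PP range (0 to 0.610 CPM, median 0.191). Its log2 fold change of PL over LP was 3.51 (± 1.05 standard error, edgeR adjusted p = 0.424).

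Sbene_nc_G02483 went the other way, with no count in any PL library and 0.317, 0.333, 0.375, 0 and 0.0718 CPM in LP. In LL it ran from 0.307 to 6.71 CPM (median 0.680), and it had 6 counts over the PP libraries. Its PL over LP difference did not pass (adjusted p = 0.461 from edgeR). Sbene_nc_G02772 owed its LP mean to replicate 1, at 11.3 CPM, with 0.600, 1.83, 0 and 0 CPM in the other LP libraries and 1 count over PL. It did not pass either (adjusted p = 0.424 from edgeR).

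Comparisons of F1 with parental oocytes share their F1 and parental libraries, so that each is given on its own. Between PL and PP, 8 of the 129 genes passed, all with higher expression in PL, where 2.3% of all genes tested passed and 1.48% in that direction. Between LP and PP, 13 genes passed, all with higher expression in LP, against 1.76% and 1.2% of all genes tested. Between PL and LL, 6 genes passed, all with higher expression in LL, against 0.915% and 0.416%. Between LP and LL, 2 genes passed, both with higher expression in LL, against 1.16% and 0.499%. Genes detected only through the group in which they were high are included in these counts. Sbene_nc_G22098 is such a gene in both comparisons with LL, and Sbene_nc_G02483 in that of PL and LL. The 4 counts were not split by the libraries that admitted a gene, so they are a description. The median log2 fold change of the 129 genes was 1.21 for PL over PP, 2.05 for LP over PP, -1.83 for PL over LL and -1.001 for LP over LL, where all genes tested had medians of 0.01, -0.03, 0.02 and -0.01. These medians of the 129 stayed the same to 2 decimals with genes at 0 in a group set to their bound.

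All F1 libraries carry the technical replicate label and only 3 parental libraries do. With the label as a covariate 0 of the 129 genes passed in each of the 4 comparisons, and 0 passed when F1 libraries with a shared stem were summed, an alternative chosen after the data were seen. At an unadjusted p under 0.05 there were then 15, 23, 38 and 25 genes with the covariate, for PL against PP, LP against PP, PL against LL and LP against LL. There were 34, 30, 31 and 33 with the stems summed. Without either change there were 38, 55, 44 and 39, where 14.7%, 12.1%, 12.5% and 12.3% of all genes tested had such a p. That share was not taken in these alternative fits. Over all genes tested, 4, 18, 2 and 5 passed with the covariate and 17, 27, 0 and 1 with the stems summed. With the covariate the median log2 fold changes of the 129 genes were 0.95 for PL over PP, 1.77 for LP over PP, -2.33 for PL over LL and -1.20 for LP over LL, in the same directions as without it. The 3 labelled parental libraries alone set the label apart from the F1 groups. Whether they were sequenced with the F1 samples is not stated, and the part of the sequencing run in these differences was not tested.

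The counts between F1 and parental oocytes also depended on single libraries, including libraries of groups that were not compared but shared the estimate of spread. Without PP replicate 7, the labelled PP library, they were 25 for PL against PP and 31 for LP against PP. The count for PL against PP was 2 without PL replicate 3, 4 or 5 or PP replicate 6, 3 without PL replicate 1 or PP replicate 1 or 2, and 4 without PP replicate 3 or 5 or LL replicate 1. For LP against PP it was 5 with LP replicate 2 or PP replicate 1 left out, 6 with PP replicate 6 left out and 7 with LP replicate 1 left out. For PL against LL it was 0 without PL replicate 3, 1 without PL replicate 4 or 5, 2 without LL replicate 4, and 3 without LL replicate 1, 2 or 3 or PP replicate 6. For LP against LL it was 5 without LP replicate 2, 4 without LL replicate 6 or PP replicate 3, and 1 without LP replicate 3, 4 or 5, LL replicate 1, 2, 3, 4 or 5, PL replicate 1, 3, 4 or 5, or PP replicate 5 or 6.

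The genes with the smallest p against PP were low in every PP library. Sbene_nc_G10824, described above, had a ratio of pooled counts of PL over PP of 62.1 (95% exact interval 10.4 to 2532, counting error only, adjusted p = 0.0240 from edgeR). Sbene_nc_G23688 had 5 counts over PP, with a highest library of 0.134 CPM, and 0.208, 2.54, 1.32, 0.701 and 0.620 CPM in PL and 0.635, 1.13, 0.891, 0 and 0.718 CPM in LP. Its LL libraries ran from 0 to 2.45 CPM (median 0.656), so that the F1 and LL ranges overlapped. Its log2 fold change for PL over PP was 4.82 (± 1.13 standard error, edgeR adjusted p = 0.0405), and this call was lost without PL replicate 3. For Sbene_nc_G10354 the PL libraries were at least 13-fold higher than 3 counts over PP (adjusted p = 0.0607 from edgeR), a call lost without PL replicate 3, 4 or 5 or PP replicate 6. Over the alternatives the adjusted p ran from 2.56e-04 to 0.398 for Sbene_nc_G23688 and from 0.0108 to 0.354 for Sbene_nc_G10354.

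Against PP, LP oocytes had the smallest p for Sbene_nc_G03322, whose LP over PP log2 fold change was 4.76 (± 1.02 standard error, edgeR adjusted p = 0.0278). Sbene_nc_G25073 had 0 to 0.268 CPM in PP (median 0), 0.238 to 14.5 CPM in LL (median 3.33), and 2.62, 9.47, 0.844, 0 and 0.934 CPM in LP. Its log2 fold change for LP over PP was 5.42 (± 1.27 standard error, edgeR adjusted p = 0.0424), and it lost the call without LP replicate 2. For Sbene_nc_G03627 the ratio of pooled counts of LP over PP was 36.8 (95% exact interval 11.9 to 184, counting error only, adjusted p = 0.0443 from edgeR), and this call was also lost without LP replicate 2. The adjusted p without that library were 0.146 and 0.190 from edgeR.

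Against LL, Sbene_nc_G22098 and Sbene_nc_G02483 were among the genes that passed, but both counted as detected only through LL libraries, and their values are a description. The LL mean of Sbene_nc_G22098 was at least 246-fold higher than 3 counts over PL, and the ratio of pooled counts of LL over LP was 456 (95% exact interval 81.6 to 18045, counting error only). The LL mean of Sbene_nc_G02483 was at least 63.8-fold higher than 3 counts over PL. Sbene_nc_G07851 had 16.5 to 70.7 CPM in all LL libraries but replicate 6, which had no count. Its PL libraries held 0.727, 0.134, 0.132, 0.0876 and 0.496 CPM, in the range of PP (0 to 1.08 CPM, median 0.152), and its LP libraries 0.794, 4.87, 0.516, 0 and 0 CPM. Its adjusted p was 0.0553 for PL over LL from edgeR (range 3.97e-06 to 0.443 over the alternatives), a call lost without LL replicate 4 or PL replicate 3, 4 or 5. For LP over LL it was 0.0984 from edgeR (range 0.00233 to 0.316), a call lost in 18 of the 24 fits that left out a library, all but those without LL replicate 6, LP replicate 2 or PP replicate 1, 2, 3 or 4.

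Some of the 129 genes followed the technical replicate label more than the genotype. No count of 6 genes was found in the 11 PP and LL libraries without the label, although each of the 6 was found in labelled libraries. These 6 could meet the detection criterion only through the 13 labelled libraries. How many coding genes followed the label was not counted, here or for the counts below. Whether the pattern is particular to non-coding genes therefore cannot be read from these counts. Sbene_nc_G18052 had at most 0.0953 CPM in those 11 libraries and 1.87 to 9.45 CPM in the 13 labelled ones, 6.03 CPM in PP replicate 7 among them, without overlap. Of the 6 genes, Sbene_nc_G20788 had 2.06 CPM in PP replicate 7, and 0.200 to 2.53 CPM over the 13 labelled libraries (median 1.30). Sbene_nc_G06515 and Sbene_nc_G07684 also had counts in all 13, with medians of 1.16 and 0.868 CPM. Sbene_nc_G06715, one of the 8 genes that passed between PL and PP, was among the 6. Outside PL it reached 0.5 CPM only in LL replicates 6 and 7 and LP replicates 1 and 2. It thus counted as detected only through PL, where it was higher, and its values are a description.

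Another pair had the reverse pattern. Sbene_nc_G09634 had no count in any labelled library, PP, LL or F1, and between 0.0229 and 41.8 CPM in the other 11 libraries. Sbene_nc_G09635, next to it in identifier number, also had no count in the labelled libraries, and up to 4.17 CPM in the others. For both, the F1 groups at 0 cannot be read as a genotype difference, since the labelled PP and LL libraries were also at 0. In all, 11 of the 129 genes were below 0.5 CPM in each of the 11 parental libraries without the label and at or above it in at least 1 labelled parental library.

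**Figure D5:**
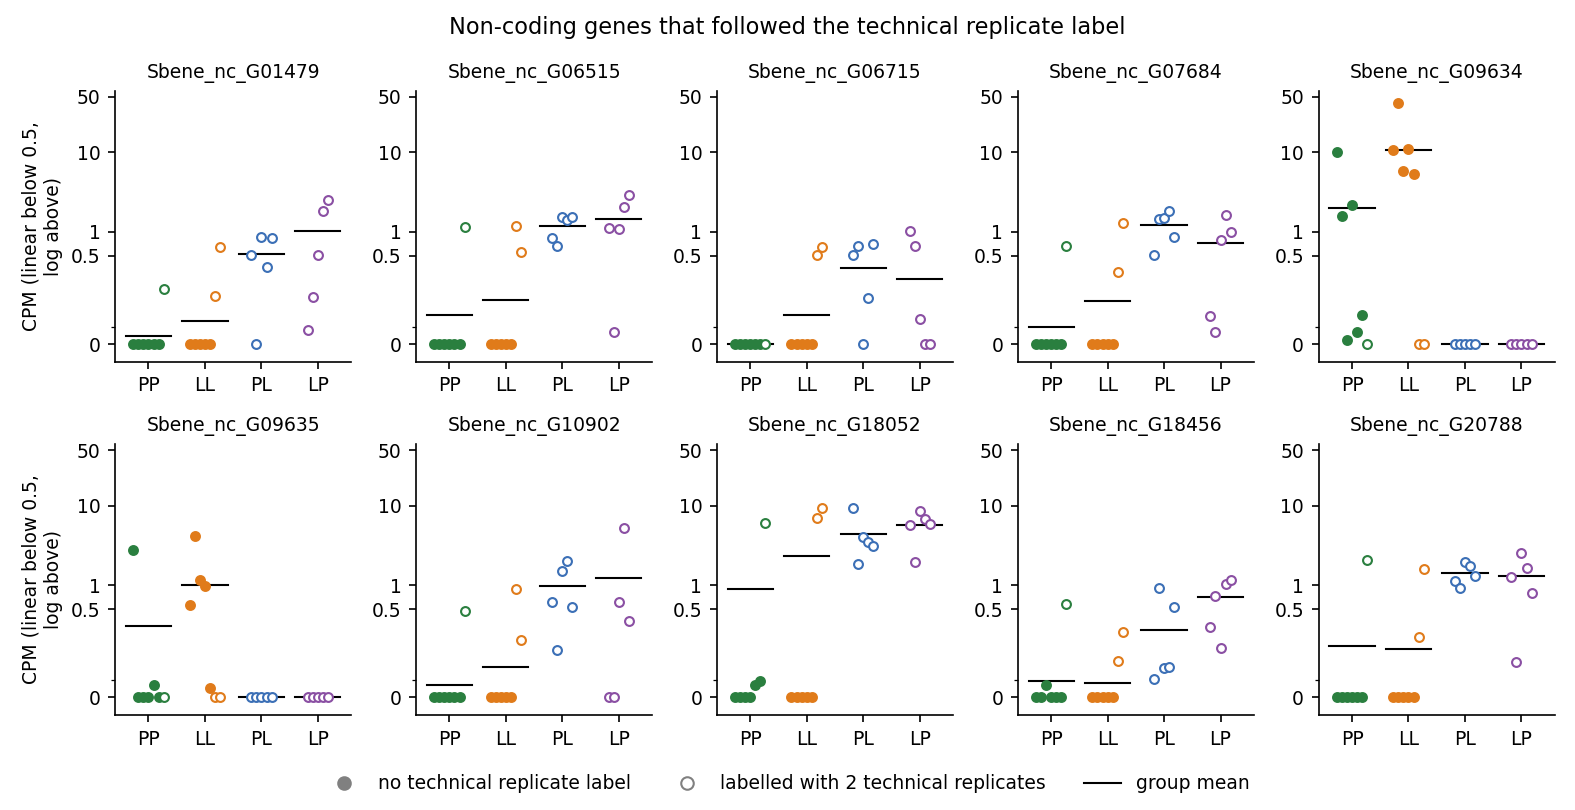
CPM of 10 detected non-coding genes that followed the technical replicate label, by genotype. The axis is linear below 0.5 CPM and logarithmic above, points are libraries, open points carry the label of 2 technical replicates and lines are group means. Sbene_nc_G18052 is at 1.87 to 9.45 CPM in open points and at most 0.0953 CPM in filled points, while Sbene_nc_G09634 and Sbene_nc_G09635 have counts only in filled points.

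The steadiest of the 129 genes showed no difference that passed in any of the 6 comparisons. They were chosen for low variation over all 24 libraries, differences between groups included, so this is largely built in. Sbene_nc_G22280 had the lowest coefficient of variation over 24 libraries, 0.739, and was at 0.5 CPM or more in 21 of them. It ran from 0 to 1.22 CPM in PP (median 0.903) and from 0.361 to 3.99 CPM in LL (median 1.70), with 2.18, 5.34, 2.80, 2.98 and 1.67 CPM in PL and 1.59, 0.733, 0.750, 2.63 and 1.72 CPM in LP. Sbene_nc_G02617 and Sbene_nc_G03895 followed, with coefficients of 0.836 and 0.890. The 3 highest coefficients belonged to genes with 1 or a few high LL libraries. Sbene_nc_G08428 (3.81) had 64.0 CPM in LL replicate 2 and at most 9.23 CPM elsewhere, Sbene_nc_G22098 (3.13) is described above, and Sbene_nc_G06529 (3.09) had 19.0 CPM in LL replicate 7 and at most 1.98 CPM elsewhere.

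Of the 129 genes 15 reached 0.5 CPM in exactly 5 libraries, and another 40 non-coding genes did so in 4. Sbene_nc_G15840, just inside, had its highest value in LL replicate 7 (5.62 CPM), with values of 0.5 CPM or more also in PP replicate 4, LL replicates 2 and 6 and PL replicate 2. Sbene_nc_G21440 and Sbene_nc_G03631, just outside, had 5.76 and 6.80 CPM in LL replicate 1 and 11.4 and 6.63 CPM in LL replicate 2.

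Identifier numbers run through coding and non-coding genes in 1 series, and whether neighbours in number are neighbours in the genome was not stated. Among the 129 genes, 7 pairs had consecutive numbers. The correlation of log2(CPM + 0.5) over the 24 libraries, which share depth and group, was 0.86 for Sbene_nc_G09634 and Sbene_nc_G09635, 0.80 for Sbene_nc_G17826 and Sbene_nc_G17827, 0.78 for Sbene_nc_G14058 and Sbene_nc_G14059, and 0.63 for Sbene_nc_G10824 and Sbene_nc_G10825. It was 0.41, 0.31 and 0.13 for the other 3 pairs. Both genes passed between PP and LL in 2 of the 7 pairs. Sbene_nc_G17827 had 0.108 to 1.83 CPM in PP (median 0.257) and 3.13 to 45.4 CPM in LL (median 21.5), and Sbene_nc_G14059 had 0.0514 to 0.938 CPM in PP (median 0.183) and 1.64 to 18.7 CPM in LL (median 7.94), both without overlap. Of the 88 coding genes next to one of the 129 genes in number and present in the fit, 2 passed between PP and LL, and the median correlation over these pairs was 0.083.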

How the data were processed

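Oocyte RNA of 7 PP, 7 LL, 5 PL and 5 LP clutches was prepared by the authors with a stranded kit and sequenced, and the deposited files hold raw counts of reads per gene, with 5 summary rows per file that were left out. According to the study's methods the reads were trimmed (Trim Galore), cleared of rRNA, aligned with HISAT2 and counted with HTSeq. The versions and the strand setting of the counting step are not given in the sources used here. Without that setting, reads of a non-coding gene and of a gene overlapping it on the opposite strand cannot be told apart. The rRNA filter may also have taken reads of non-coding genes.

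Groups were taken from the sample titles. CPM used the sum of counts on genes. Genes at 0.5 CPM or more in at least 5 of 24 libraries (10819) entered edgeR (version 4.0.16, R version 4.3.3) with TMM normalization, quasi-likelihood tests and Benjamini-Hochberg adjustment over all of them. PP and LL were fitted alone (14 libraries, biological coefficient of variation 0.767), and comparisons with F1 libraries came from 4 group means over 24 libraries (0.734). The standard error is the log2 fold change divided by the square root of F. Thresholds were those of the study, adjusted p 0.05 (0.1 with F1 libraries) and a fold change over 1.5. The p-values treat each library as a separate clutch. They measure the spread between clutches only if libraries with a shared stem came from different females, which the counts do not show. Intervals of count ratios are exact and cover counting error only. The authors' RUVg step was not repeated. Alternatives were DESeq2 (version 1.42.0), other normalization, filters and sets of libraries, the technical replicate label as covariate, replicate numbers as a block, and the omission of single libraries.

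The genes named are the 5 with the highest mean CPM, the 8 called genes whose PP and LL libraries did not overlap with the largest change, the 3 furthest toward PP, the 3 with the smallest p between PL and LP, up to 3 called in each other comparison, the 3 steadiest and 3 most variable, 2 on each side of the detection criterion, and pairs of consecutive identifiers. The 10 genes that followed the label and the counts by the libraries that admitted a gene were chosen after the values were seen. The 129 genes and all gene lists were chosen with earlier results of these data known. Before use, the edgeR code was tested on simulated data with 200 genes shifted 3-fold.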

Additional observations from a re-analysis of the deposited data

Results flagged for a closer look

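In each group, the highest or lowest library of the named genes and of the summed level was set against the rest, by its gap to the nearest library as a share of the group's range (Dixon's 95% critical value). Of 71 groups over 23 quantities, 18 held such a library. The critical value corresponds to about 5% only for normally distributed values. The CPM of these genes spread widely and the genes were chosen on their values, so the 18 cannot be set against that rate. PP replicate 4 and LP replicate 2 accounted for 5 each, LL replicate 7 for 3, PL replicate 1 for 2, and PP replicate 2, LP replicate 1 and LP replicate 5 for 1 each. These groups share libraries, so the 18 are not independent.

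PP replicate 4 stood above the other PP libraries for Sbene_nc_G01835 (0.771 CPM, next 0.0447), Sbene_nc_G03322 (1.23 CPM, next 0.298), Sbene_nc_G07851 (1.08 CPM, next 0.402), Sbene_nc_G11936 (12.8 CPM, next 2.70) and Sbene_nc_G16937 (2.11 CPM, next 0.804). PP replicate 2 did so for Sbene_nc_G02772 (0.990 CPM, next 0.405). LL replicate 7 stood above the other LL libraries for Sbene_nc_G08363 (66.4 CPM, next 21.3), Sbene_nc_G17826 (96.7 CPM, next 22.9) and Sbene_nc_G18923 (5.94 CPM, next 2.54).

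LP replicate 2 stood above the other LP libraries for Sbene_nc_G07851 (4.87 CPM, next 0.794), Sbene_nc_G08363 (137 CPM, next 6.42), Sbene_nc_G11936 (14.9 CPM, next 1.75), Sbene_nc_G17826 (66.5 CPM, next 17.6) and Sbene_nc_G25073 (9.47 CPM, next 2.62). LP replicate 1 did so for Sbene_nc_G02772 (11.3 CPM, next 1.83) and LP replicate 5 for Sbene_nc_G10824 (0.646 CPM, next 0.141). PL replicate 1 stood above the other PL libraries for Sbene_nc_G11632 (12.6 CPM, next 2.40) and Sbene_nc_G25073 (2.60 CPM, next 0.438).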

How the results depend on the processing

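The number of genes detected was 88 with a minimum of 1 CPM, 96 with 7 libraries in place of 5, and 123 with a minimum of 10 counts. The LL to PP ratio of the summed level, 9.97, was 8.55 per read in the file and 8.50 to 11.58 with each library left out. Between PP and LL, 41 genes passed. The count was 70 with DESeq2 and 24 of the 52 genes kept by filterByExpr. It was 24 with PP replicates 5 and 6 summed and 24 to 42 with each library left out. From 0 to 2 of these genes were higher in PP. Over all genes tested the calls ran from 229 to 624 with each library left out.

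Between PL and LP the count of 0 became 3 with DESeq2 and stayed 0 with each library left out. For PL against PP (8) it was 3 in a fit of these groups alone, 21 with DESeq2, 5 without a filter and 2 to 25 with each library left out. For PL against LL (6) these were 14 alone, 28 with DESeq2 and 0 to 8. For LP against PP (13) they were 0 alone, 32 with DESeq2 and 5 to 31. For LP against LL (2) they were 18 with DESeq2, 1 with filterByExpr, 1 with median-of-ratios normalization and 1 to 5. With the technical replicate label as covariate, and with F1 libraries summed by stem, each of these 4 counts was 0. Over all genes tested DESeq2 called 807 for PL against PP, 462 for PL against LL, 566 for LP against PP and 510 for LP against LL. Fits of these groups alone called 121, 156, 58 and 62 in the same order. Calls over all genes tested also moved with each library left out, over the ranges given above. The causes of these differences were not tested.

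The labels do not say that replicate numbers pair the libraries. Deviations of same-numbered PP and LL libraries correlated at 0.0012 to 0.434, with 2 of 7 over 0.1. The highest was that of PP and LL replicates 7, which both carry the technical replicate label. For PL and LP libraries the correlations were -0.0853 to 0.196, with 3 of 5 over 0.1. Libraries with different numbers were not correlated, so these values cannot decide whether the numbers pair libraries. With the replicate number as a block the counts were 26 for PP against LL, 0 for PL against LP, 26 for PL against PP (25 higher in PL), 19 for PL against LL (7 higher in PL), 28 for LP against PP (27 higher in LP) and 15 for LP against LL (8 higher in LP), so that calls of the block against LL went in both directions. Over all genes tested the block gave 216, 1, 662, 437, 438 and 430 calls in the same order.

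Of 814 alternative values for 29 fold changes of named genes, 715 kept direction and side of the threshold, 89 lost the call, 7 gained it and 3 changed direction. All 3 belonged to Sbene_nc_G08363 (PP over LL -0.84), at 0.092 among the 11 libraries without the label, 0.32 with the replicate block and 0.36 without LL replicate 7, within a range of -1.17 to 0.36 when libraries were left out singly. A level of 3 counts in a library is 0.0688 to 0.401 CPM, so depth limits what can be read from a gene at 0.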

Other observations

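The 1995 non-coding genes that had counts but did not meet the detection criterion were summed in each library. They held 14.8 to 56.2 CPM in PP, 55.0 to 222 CPM in LL, 52.3 to 78.9 CPM in PL and 48.3 to 84.2 CPM in LP. The highest PP library, the labelled replicate 7, was above the lowest LL library, and both F1 groups lay within the span of the parental values. The 6 PP libraries without the label held 14.8 to 45.7 CPM, below all LL and F1 libraries. No test was made of these sums.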
